A study of Mus musculus with 20 samples.

Results

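The comparison set regulatory T cells against naive CD4+ T cells of high surface CD5 that had been rested in culture. It used 8 of the 20 RNA-seq libraries of the study, 4 of Foxp3+ regulatory T cells (Treg) and 4 of rested CD5hi cells, chosen by the names of the samples and by no measured value. The C57BL/6 mice carried a Foxp3-GFP reporter, were 8 to 12 weeks old and gave cells of spleen and lymph node, and the labels describe males and females as pooled. Treg cells were sorted as live TCRb+ CD4+ CD8- Foxp3-GFP+ cells and lysed at once. Naive cells were Foxp3-GFP-, low in CD44 and in the top 15% for CD5, and were then kept dissociated for 22 h with IL-7 at 10 ng/mL. The same dump channel (CD69 and the lineage markers B220, Ly6G, CD11b, CD11c, NK1.1 and F4/80) was used for both sorts. The study asked what changes in naive cells once contact with self peptide-MHC is removed, and this pair shows how far Treg cells differ from naive cells in that state. The 4 libraries of fresh CD5hi cells, sorted by the same naive gate and lysed at once, are given beside many of the results but not all.

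Treg cells are CD4+ T cells that hold immune responses to self in check, and the transcription factor Foxp3 defines them. They depend on IL-2, which they bind through a receptor of high affinity and pass on through STAT5. Naive CD4+ T cells live on IL-7, which also signals through STAT5, and on weak recognition of self peptide-MHC by the T cell receptor (TCR), called tonic signalling. CD5 restrains TCR signalling, and its surface level follows the strength of that self recognition.

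The groups differed in more than cell type. Treg cells were never cultured, so cell type and culture cannot be told apart in this comparison. The Treg gate set no limit on CD44 or CD5, so it could hold effector-like as well as resting Treg cells, whereas the naive gate could not hold cells high in CD44. The design text calls the samples biological replicates without saying how many mice each pooled, so the p-values measure the spread between these samples.

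Total counts ran from 43509126 to 54555773 in Treg libraries, from 38211406 to 50654225 in rested CD5hi libraries and from 43770193 to 59065224 in fresh CD5hi libraries. Against the label of pooled sexes, replicate 3 of both Treg and rested CD5hi cells carried Y-linked transcripts (333 and 326 CPM, counts scaled to each library's TMM-adjusted total, summed over 4 genes) and almost no Xist, while replicates 1, 2 and 4 carried Xist at 897 to 1736 CPM and almost no Y-linked transcripts. All 4 fresh CD5hi libraries carried Y-linked transcripts, at 366 to 405 CPM. Sex was therefore balanced between Treg and rested CD5hi cells, but not in comparisons with fresh cells. Replicate 3 stood farthest from the other rested CD5hi libraries. The T cell marker list summed to 2730 to 2895 CPM in Treg and 2419 to 2604 CPM in rested CD5hi libraries. Markers of B and plasma cells summed to 91.2 to 99.0 CPM in Treg against 10.9 to 20.2 CPM in rested cells, most of it Cd74 (67.9 CPM in Treg), with 6 of 11 members under 1 CPM in Treg. Those of macrophages and monocytes summed to 13.01 to 17.7 against 7.37 to 11.1 CPM. In fresh CD5hi libraries these 2 lists summed to 9.78 to 12.8 CPM (B and plasma cells) and 23.6 to 28.0 CPM (macrophages and monocytes). Markers of CD8, NK and gamma-delta T cells summed to 26.2 to 31.3 CPM in Treg, 21.6 to 25.8 CPM in rested and 41.4 to 45.0 CPM in fresh CD5hi libraries. Cd8b1 was the highest of them in Treg, at a mean of 13.3 CPM. The part of these markers in the results was not tested.

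The sort markers followed the gates. Foxp3 read 709, 734, 679 and 768 CPM in the 4 Treg libraries, 29.8, 29.2, 24.6 and 30.9 CPM in the rested CD5hi libraries and 23.6, 22.4, 25.4 and 25.0 CPM in the fresh CD5hi libraries. The Treg libraries lay far above both naive groups, with a log2 fold change of 4.66 ± 0.07 (SE, as for every log2 value here) against rested cells. Cd4 was level between Treg and rested cells, at 706 ± 20.2 CPM (SD, n = 4, as for every mean CPM here) in Treg and 731 ± 27.6 CPM in rested cells, with overlapping libraries (log2 -0.05 ± 0.04, adjusted p = 0.3). Its mean in fresh CD5hi cells was 922 CPM. Cd8a was low in both groups, at 1.46 ± 0.590 CPM in Treg and 0.426 ± 0.200 CPM in rested cells. Cd44, which was gated low in naive cells only, read 125 to 138 CPM in Treg and 6.98 to 9.50 CPM in rested cells. Cd5 read 609.8, 613, 620.5 and 582 CPM in Treg libraries, 460.0, 456, 488 and 442 CPM in rested libraries and 980.0, 989.6, 905 and 1055 CPM in fresh libraries. Cells sorted for high CD5 thus held less Cd5 RNA than Treg cells after resting and more before it, by log2 0.39 ± 0.06 (adjusted p = 3.9e-06) and -0.70 ± 0.06 (adjusted p = 1.2e-09) for Treg against rested and fresh cells. In bulk samples, fewer cells expressing a gene and less RNA per cell cannot be told apart.

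Across the transcriptome, 13309 genes were tested and 8817 of them (66.2%) passed an adjusted p of 0.05 between Treg and rested CD5hi cells, by edgeR's quasi-likelihood test with Benjamini-Hochberg adjustment. Of these, 4455 genes (33.5%) were higher in Treg and 4362 (32.8%) were lower. Large differences were one-sided: 2129 genes (16.0%) were at least 2-fold higher in Treg and 799 (6.00%) at least 2-fold lower, and 781 (5.87%) were at least 8-fold higher against 108 (0.811%) at least 8-fold lower. With so many genes called, a call alone says little about a gene, so sizes and library values are given throughout. The counts of list members below are to be read beside these 33.5% higher and 32.8% lower over all genes. Against fresh CD5hi cells, 7208 genes (54.2%) were called for the same Treg libraries, and 6978 (52.4%) were called between rested and fresh CD5hi cells, 26.2% higher and 26.2% lower after resting. These 3 comparisons share libraries, so their values are set side by side and their agreement is not counted as evidence. The direction of small changes depends on scaling: with scaling on the library total alone the median gene shifted from -0.00 to 0.14 on the log2 scale and 65.8% of calls were higher in Treg, against 50.5% here.

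**Figure D1:**
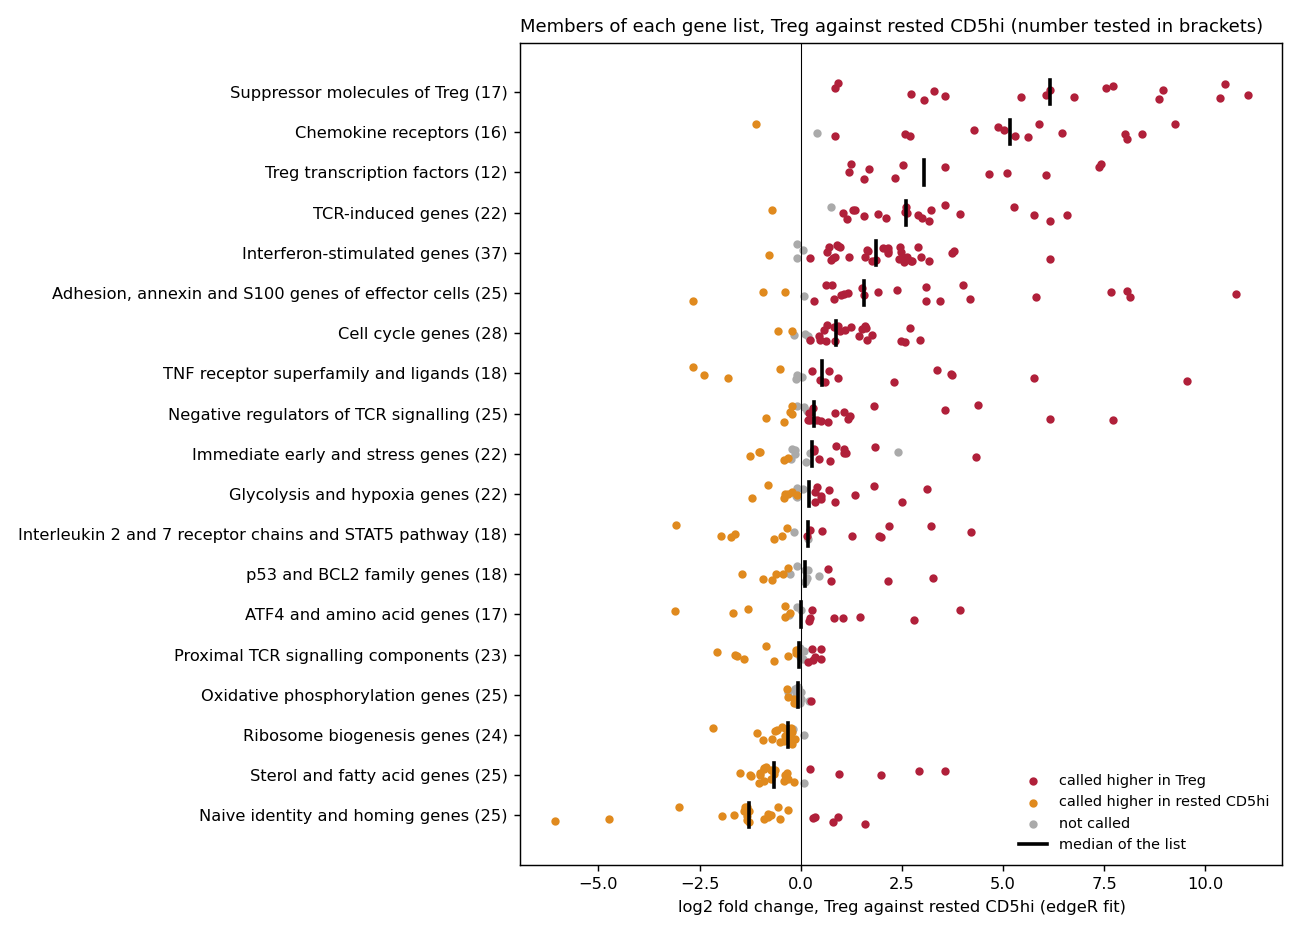
Fitted log2 fold changes of Treg against rested CD5hi cells (horizontal axis) for the tested members of 19 gene lists, each dot 1 gene, red where called higher in Treg, orange where called higher in rested CD5hi cells and grey where not called, with a black bar at the list's median. Suppressor molecules, chemokine receptors and Treg transcription factors lie to the right, at medians of 6.17, 5.16 and 3.05, and naive identity genes to the left, at -1.28; dots of genes without counts in rested cells depend on the prior count and have no upper limit.

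Every transcription factor on the list of those known in Treg cells was higher in Treg than in rested CD5hi cells, 12 of 12 members, with a median log2 fold change of 3.05 against -0.00 over all genes tested. Foxp3, on which the cells were sorted, is 1 of them. This list and those below were chosen with earlier results of these data known, so their counts and medians are descriptions. Against fresh CD5hi cells 12 of 12 were higher too, with a median of 3.09, where 27.5% of all genes were called higher and 26.6% lower. Ikzf2, which encodes the Ikaros family factor Helios, showed the widest gap among members with counts in every library. It read 899, 841, 896 and 941 CPM in Treg libraries and 4.22, 5.39, 5.26 and 5.85 CPM in rested libraries, 172-fold apart (log2 7.43 ± 0.14, adjusted p = 2.0e-20). Fresh CD5hi libraries held 9.17, 8.97, 10.1 and 10.2 CPM, so rested cells lay below fresh ones and farther from Treg cells. Maf, an activator of Il10, read 166, 149, 191 and 183 CPM in Treg against 1.78, 2.43, 2.96 and 3.04 CPM in rested libraries (log2 6.06 ± 0.22). Irf4, which effector Treg cells need, read 94.4, 91.4, 95.4 and 104 against 6.97, 5.57, 10.1 and 9.90 CPM (log2 3.56 ± 0.21). No library of one group reached the other for any of these 3 genes, as was so for 57.3% of all genes tested.

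Some of the Treg factors were closer to Treg levels in rested than in fresh naive cells. Ikzf4, which encodes Eos, a partner of Foxp3, read 139, 132, 128 and 139.5 CPM in Treg, 45.9, 41.7, 35.00 and 44.7 CPM in rested and 19.6, 17.6, 17.1 and 18.7 CPM in fresh libraries. The 3 groups did not overlap, and Treg cells exceeded rested cells by log2 1.69 ± 0.10 and fresh cells by 2.89 ± 0.10. Prdm1, which encodes Blimp-1 of effector cells, followed the same order at 39.9 ± 4.71, 16.8 ± 1.56 and 7.29 ± 1.32 CPM, with differences of log2 1.25 ± 0.13 and 2.46 ± 0.14. Nfil3 stood at 14.6 ± 0.963, 2.52 ± 0.531 and 1.04 ± 0.275 CPM in that order. Gata3, a factor of type 2 helper cells that Treg cells also use, went the other way: rested cells at 36.9 ± 1.72 CPM lay below fresh cells at 52.2 ± 1.49 CPM, and Treg cells were at 109.6 ± 6.54 CPM. Batf, an AP-1 partner of Irf4, read 54.2, 51.0, 54.7 and 49.4 CPM in Treg and 16.5, 18.2, 33.3 and 23.9 CPM in rested libraries, with replicate 3 the highest of the rested ones (log2 1.19 ± 0.20, adjusted p = 2.9e-05). Rora and Tbx21, factors of tissue and type 1 helper programmes, were at 13.3 ± 0.899 and 6.30 ± 1.43 CPM in Treg against 2.65 ± 0.295 and 0.176 ± 0.230 CPM in rested cells, and without rested replicate 3, its highest rested library, the log2 fold change of Tbx21 went from 5.09 to 6.51. Pparg, known from fat tissue Treg cells, gave counts in each Treg library (0.296 to 0.554 CPM) and none in the 4 rested libraries. That makes it at least 24.3-fold higher in Treg, with the floor set at 3 counts over the group.

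All 17 tested members of the list of suppressor molecules were higher in Treg, with a median log2 fold change of 6.17, and Il12a had too few counts to test. The median was also 6.17 with Il10 and Areg, which had no counts in rested cells, set at their bounds. Against fresh CD5hi cells the median was 6.47, again with 17 of 17 higher, although Areg was not called there by DESeq2 (adjusted p = 0.14). Lrrc32, which encodes GARP, the surface anchor of latent TGF-beta, read 472, 438, 433 and 502 CPM in Treg libraries, 0.451, 1.39, 1.21 and 0.827 CPM in rested libraries and 0, 0.180, 0.106 and 0.0499 CPM in fresh libraries. The Treg libraries stood 462-fold above the rested ones (log2 8.85 ± 0.21, adjusted p = 8.3e-19). Itgb8, the integrin chain that releases TGF-beta from that complex, read 25.3, 25.1, 25.9 and 25.5 CPM in Treg and 3 counts in all over the 4 rested libraries, 2 of them in replicate 3. The ratio was 1519 with a 95% exact interval of 519.6 to 7369. That interval treats each count as independent, and it is too narrow if both reads of a pair were counted. Tgfb1 itself differed far less, at 179 ± 17.1 CPM in Treg and 100.3 ± 6.31 CPM in rested cells (log2 0.84 ± 0.06).

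Other secreted mediators were near 0 in rested naive cells, unlike Tgfb1. Il10, the anti-inflammatory cytokine gene, read 3.17, 2.81, 4.56 and 3.80 CPM in Treg libraries and had no counts in rested libraries, which makes it at least 214-fold higher. Areg, a tissue repair factor, read 1.14 to 1.44 CPM in Treg and was likewise without counts in rested cells, which makes it at least 73.5-fold higher in Treg. Ebi3, a subunit of IL-35, read 18.0, 15.9, 16.7 and 17.6 against 0.106, 0.101, 0.0213 and 0.134 CPM (log2 7.53 ± 0.41). Fgl2, a secreted inhibitor of dendritic cells, read 47.8, 44.95, 61.4 and 56.7 against 0.0530, 0, 0 and 0.0447 CPM. Gzmb, a cytolytic protease, was at 13.7 ± 1.87 against 0.202 ± 0.146 CPM. In each of these 5 genes the lowest Treg library lay above the highest rested library, although Treg levels of Il10 and Areg were low in CPM. The 2 groups did not overlap in 57.3% of all genes tested.

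Surface suppressor molecules divided into those near 0 in both naive states and those present in rested cells. Tigit, an inhibitory receptor, read 85.6, 65.9, 80.0 and 78.4 CPM in Treg, 0.106, 0.543, 0.277 and 0.492 CPM in rested and 0.626, 0.586, 0.337 and 0.449 CPM in fresh libraries. Entpd1, which encodes CD39, the enzyme that strips phosphates from extracellular ATP, was at 52.5 ± 2.32, 0.461 ± 0.297 and 0.585 ± 0.155 CPM in that order, and the naive states overlapped in both genes. Nrp1, a semaphorin receptor of thymus-derived Treg cells, was at 332 ± 19.99, 7.56 ± 1.83 and 7.46 ± 0.281 CPM. Nt5e, which encodes CD73, the enzyme that makes adenosine after CD39, behaved unlike its partner. It read 284, 258, 275 and 281 CPM in Treg, 133, 143, 144 and 162 CPM in rested and 38.1, 46.5, 44.7 and 45.9 CPM in fresh libraries. Treg cells were above rested cells by log2 0.91 ± 0.12 (adjusted p = 5.4e-07) and above fresh cells by 2.65 ± 0.12. Folr4, the folate receptor family gene of the sperm-binding protein Juno, was highest in Treg at 651 to 709.6 CPM and lower in rested cells (58.8 to 75.5 CPM) than in fresh cells (221 to 226 CPM).

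Ctla4, the inhibitory receptor that strips CD80 and CD86 from antigen-presenting cells, showed the widest shift between the naive states on this list among members with counts in each naive library. It read 407, 361, 467 and 452 CPM in Treg libraries, 37.2, 35.9, 35.8 and 33.8 CPM in rested libraries and 3.45, 4.19, 3.10 and 3.05 CPM in fresh libraries. No groups overlapped. The difference of Treg from rested cells was log2 3.56 ± 0.10, and from fresh cells 6.94 ± 0.12.

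**Figure D2:**
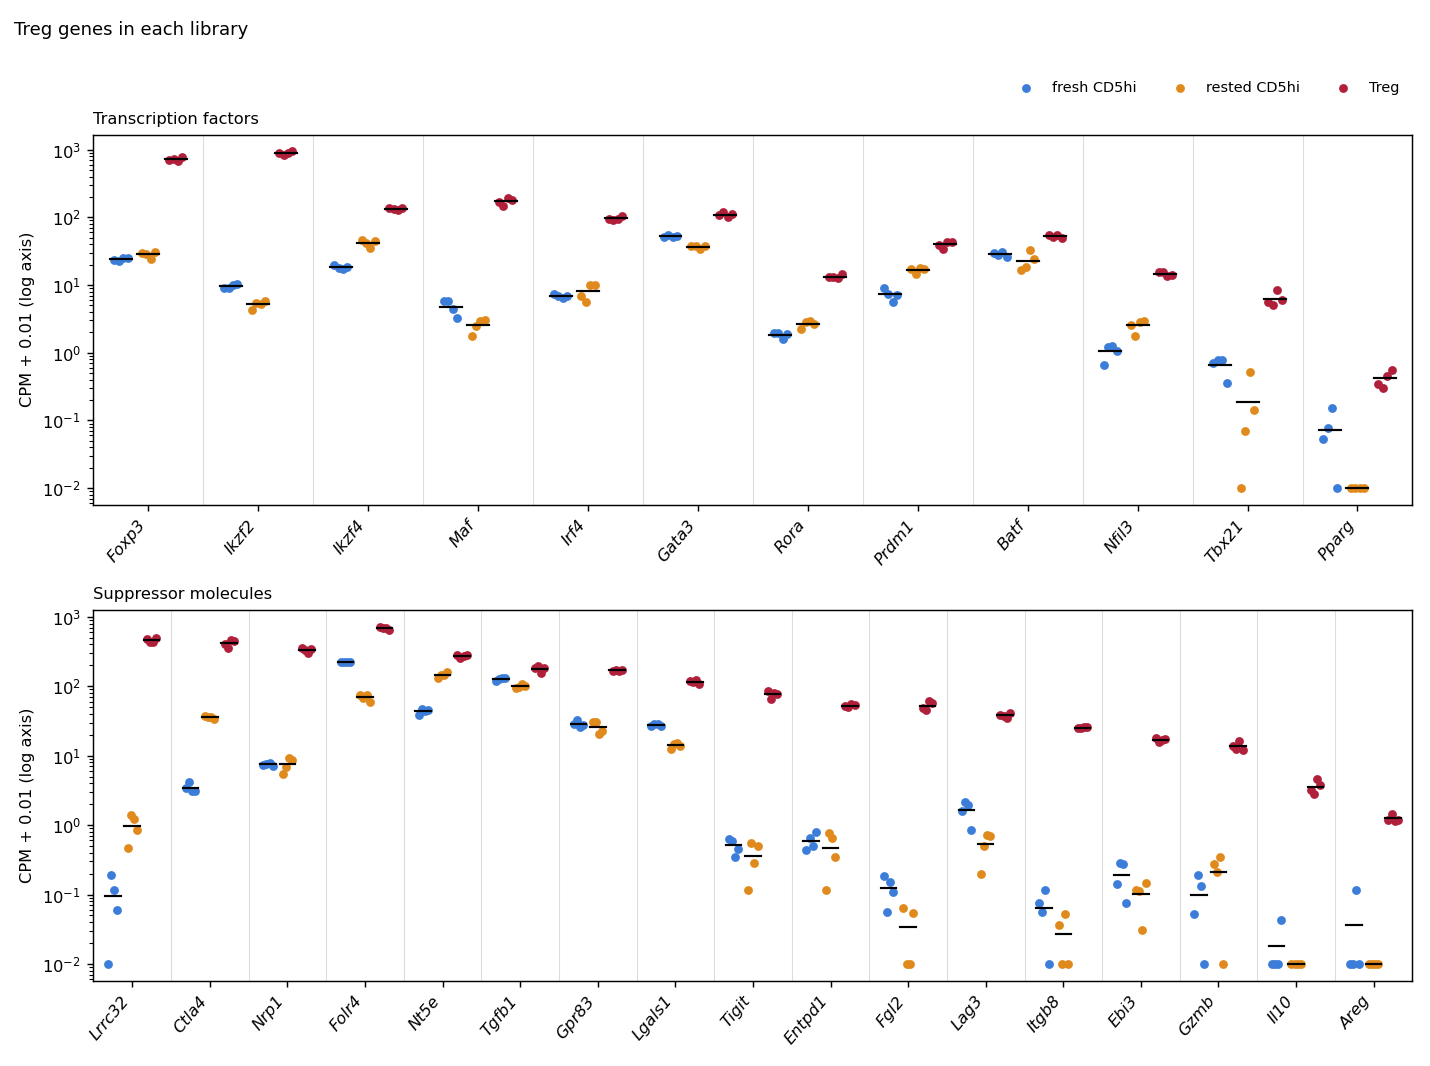
CPM plus 0.01 on a log axis for 12 transcription factors (top) and 17 suppressor molecules (bottom) in each library, 4 dots per group with a black bar at the group mean, blue for fresh CD5hi, orange for rested CD5hi and red for Treg. The Treg dots lie above the rested dots for each gene, by 2 powers of 10 or more for Ikzf2, Lrrc32, Tigit and Entpd1 and by less than 1 for Ikzf4, Prdm1 and Nt5e; dots at 0.01 are libraries without counts.

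The 12 widest rises in Treg, among genes of at least 10 CPM whose libraries did not overlap, held receptors, signalling adaptors and secreted peptides. Penk, which encodes the precursor of enkephalins, read 45.4, 39.2, 42.9 and 34.9 CPM in Treg and gave 1 count over the 4 rested libraries, a ratio of 7333 (95% exact interval 1316 to 289690). Stra6, a receptor for retinol-binding protein, read 18.0, 18.6, 14.5 and 19.4 CPM in Treg and was without counts in rested libraries, at least 1048-fold higher. Fresh CD5hi cells held traces of both, at 0.174 ± 0.100 and 0.130 ± 0.0482 CPM. Klrg1, a receptor of terminally differentiated effector cells, read 43.3, 32.9, 45.9 and 49.2 CPM in Treg and at most 0.0426 CPM in a rested library. Gpr15, a homing receptor of colonic Treg cells, read 24.8, 21.5, 17.4 and 23.0 CPM in Treg and 0, 0.0804, 0 and 0.0447 CPM in rested libraries. Rgs9, a regulator of G protein signalling, was at 29.9 ± 1.15 against 0.0311 ± 0.0386 CPM. Arnt2, Ptpn5, Peli2 and Tnfrsf8 gave only 2 or 3 counts over the rested libraries, with ratios of 983 (272 to 8122), 897 (307 to 4350), 949.6 (263 to 7846) and 915 (253 to 7563). The remaining members were Fgl2 and Itgb8, described above, and Apol9b, described with the genes lost on resting.

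Of 18 genes of the IL-2 and IL-7 receptors and of STAT5 signalling, 9 were higher in Treg, 7 lower and 2 not called, with a median of 0.17. Over all genes 33.5% were higher and 32.8% lower, an even split as well, so the count gives the list no direction. Genes of the IL-2 receptor were higher in Treg. Il2ra, the chain that gives high affinity and a known STAT5 target, read 862, 793, 788 and 852 CPM in Treg, 98.9, 81.8, 80.6 and 93.2 CPM in rested and 1.90, 1.60, 1.22 and 1.85 CPM in fresh libraries. Rested cells lay between the others, with Treg cells above them by log2 3.22 ± 0.09 (adjusted p = 9.2e-18) and above fresh cells by 8.97 ± 0.12. Il2rb, the signalling chain shared with IL-15, read 1099, 1147, 1081 and 1202 CPM in Treg and 61.2, 63.1, 57.4 and 62.9 CPM in rested libraries, 18.5-fold apart, with fresh cells at 33.8 ± 1.60 CPM. Il2rg, the common gamma chain, differed by less, at 622 ± 16.3 against 430.4 ± 33.6 CPM (log2 0.53 ± 0.06), and fresh cells at 613 ± 17.6 CPM were at the Treg level. Jak3, the kinase that binds the gamma chain, followed Il2rg more widely: Treg libraries read 327, 327, 331 and 350.1 CPM, rested libraries 76.9, 72.9, 62.5 and 80.7 CPM and fresh libraries 304, 290.4, 291 and 272 CPM. Rested cells were thus the low group for Jak3 (log2 2.19 ± 0.06 for Treg against them). Stat5a was at 148 ± 11.03 against 61.6 ± 6.66 CPM and Stat5b at 368 ± 16.2 against 332 ± 7.87 CPM. The Stat5b call was lost in the edgeR fit with a replicate block over the 8 libraries (adjusted p = 0.058).

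The receptor chains for IL-7 and IL-4 pointed the other way. Il7r, the IL-7 receptor alpha chain, read 218, 207, 202 and 291 CPM in Treg and 655, 594, 785 and 978 CPM in rested libraries, with fresh libraries at 677, 643, 555 and 704 CPM. Treg cells were lower than both naive states, by log2 -1.71 ± 0.15 (adjusted p = 3.0e-09) against rested cells and -1.49 ± 0.15 against fresh cells, and rested did not differ from fresh beyond their spread (adjusted p = 0.22). Il4ra, the IL-4 receptor chain, was at 319 ± 18.7 CPM in Treg and 989 ± 82.1 CPM in rested cells, with fresh cells between at 430.4 ± 14.4 CPM. Jak1, the partner of both receptors, was at 895 ± 36.1 against 1231 ± 69.6 CPM (log2 -0.46 ± 0.05).

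Genes known to respond to STAT5 did not share a direction. The feedback inhibitor genes Cish and Socs2 were highest in Treg. Cish read 204, 203.5, 194 and 241 CPM in Treg, 58.7, 55.9, 54.4 and 50.8 CPM in rested and 12.6, 13.3, 18.5 and 15.1 CPM in fresh libraries, a stepwise order with no overlap (log2 1.94 ± 0.13 against rested and 3.82 ± 0.14 against fresh cells). Socs2 read 69.8, 59.5, 75.1 and 71.7, 18.9, 19.8, 14.2 and 16.9 and 0.0863, 0.316, 0.142 and 0.0666 CPM in the same order, so rested cells had moved most of the way from fresh to Treg levels on the log2 scale, by 6.88 ± 0.21 of 8.87 ± 0.21. Socs1 barely differed, at 82.4, 98.3, 100.2 and 105 CPM in Treg and 87.5, 90.6, 82.1 and 71.5 CPM in rested libraries, which overlapped (adjusted p = 0.048, and 0.066 to 0.13 without Treg replicate 2, 3 or 4 or rested replicate 4), while fresh libraries stood apart at 24.9 to 32.4 CPM. In the edgeR fit with a replicate block over the 8 libraries Socs1 was not called either (adjusted p = 0.051). Socs3 was not called, at 169 ± 6.76 against 191 ± 9.61 CPM (adjusted p = 0.085, and 0.019 in a fit of the 8 libraries alone).

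Bcl2 and the Pim kinase genes were highest in rested cells. Bcl2, the survival gene induced by IL-7, read 382, 363, 345 and 389.6 CPM in Treg, 1474, 1434, 1373 and 1465 CPM in rested and 240.2, 271, 305 and 271 CPM in fresh libraries. Rested cells held 3.88-fold more than Treg cells (log2 -1.96 ± 0.10), while Treg cells exceeded fresh cells by 0.44 ± 0.09 (adjusted p = 0.00043). Pim1, a kinase gene downstream of STAT5, was at 334 ± 15.7, 526 ± 28.6 and 90.5 ± 2.64 CPM in Treg, rested and fresh cells. Pim2, its relative, was lowest in Treg, at 27.6 ± 1.41 CPM against 232 ± 23.4 and 87.1 ± 7.21 CPM in rested and fresh cells. Ccnd3, a cyclin gene, was lower in Treg by log2 -0.35 ± 0.05, and Ccnd2 was not called (adjusted p = 0.17, and 0.041 in a fit of the 8 libraries alone).

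Promoter windows of Foxp3 and Cish are shown because Foxp3 defines the Treg group and Cish is a STAT5 responder with a stepwise order over the 3 groups. Only windows of these genes that held a match to the motif below were shown. Both come from RefSeq on GRCm38.p6, whereas the counts were made on mm9, and both are given on the plus strand, in lower case with matches to TTCNNNGAA, the core that STAT5 binds, in capitals. The motif reads the same on both strands. The Cish stretch, chr9:107296409-107296678, runs to 20 bases past the annotated start, and the Foxp3 stretch, chrX:7580233-7580482, ends at 1 of its annotated starts.
Cish: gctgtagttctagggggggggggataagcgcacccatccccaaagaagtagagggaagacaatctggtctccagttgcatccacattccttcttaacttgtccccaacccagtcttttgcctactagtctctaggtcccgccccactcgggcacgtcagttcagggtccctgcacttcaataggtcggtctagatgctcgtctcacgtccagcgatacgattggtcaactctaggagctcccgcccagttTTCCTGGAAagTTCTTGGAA
Foxp3: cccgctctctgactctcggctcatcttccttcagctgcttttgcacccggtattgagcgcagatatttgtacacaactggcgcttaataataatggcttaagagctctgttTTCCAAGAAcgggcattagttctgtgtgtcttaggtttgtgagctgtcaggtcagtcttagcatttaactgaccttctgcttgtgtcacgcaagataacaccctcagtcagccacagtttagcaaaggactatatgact
The Cish window shown has 2 matches at its start and the Foxp3 window shown has 1 upstream. That each holds a match was fixed by the choice of windows. Over all 32851 RefSeq windows of 300 bases, 2726 (8.30%) hold at least 1 match and 150 (0.457%) hold 2 or more. Of the 18 genes of the list, 15 had a window and 3 matched: Cish, Il7r and Socs3, which were respectively higher, lower and not called in Treg. A gene was counted here if any of its windows matched, so this count is unlike the 8.30% of single windows. A match is a description of these letters and not of binding.

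**Figure D3:**
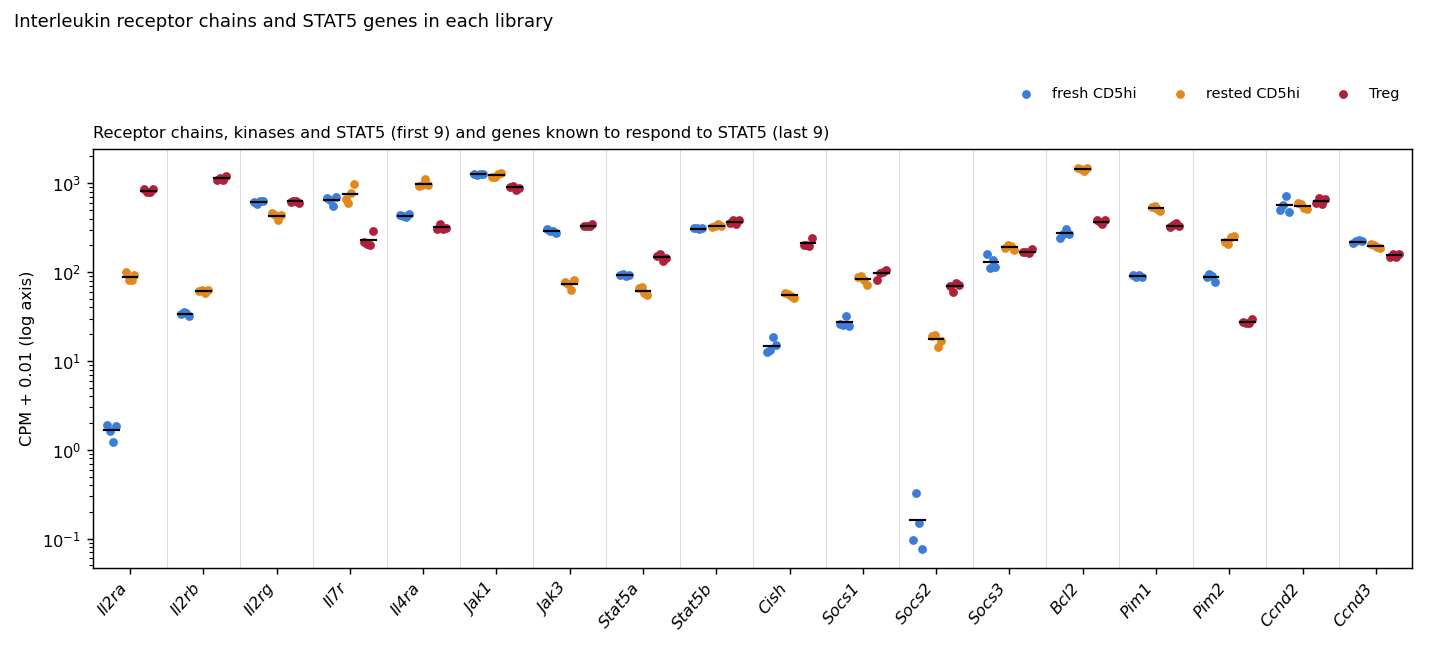
CPM plus 0.01 on a log axis for the 18 genes of the IL-2 and IL-7 receptor and STAT5 list in each library, 4 dots per group with a black bar at the group mean, blue for fresh CD5hi, orange for rested CD5hi and red for Treg. Il2ra, Cish and Socs2 climb from fresh to rested to Treg cells, whereas Bcl2 and Pim1 peak in rested cells, at 1437 and 526 CPM.

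Among the TNF receptor superfamily and its ligands, 11 of 18 tested members were higher in Treg and 4 lower, with a median of 0.54 on the log2 scale. Costimulatory receptors led the rises. Tnfrsf9, which encodes 4-1BB, read 154, 138, 152 and 132 CPM in Treg and 2.89, 1.91, 2.96 and 2.91 CPM in rested libraries, with fresh libraries at 10.7, 11.7, 9.88 and 12.3 CPM (log2 5.76 ± 0.12 and 3.69 ± 0.10 for Treg against rested and fresh). Rested cells were the lowest group. Tnfrsf4, which encodes OX40, had the opposite order of the naive states, at 246, 217, 273 and 229 CPM in Treg, 50.7, 50.8, 46.5 and 45.6 CPM in rested and 10.96, 11.04, 12.0 and 10.54 CPM in fresh libraries. Tnfrsf18, which encodes GITR, was at 226 ± 16.02, 150.2 ± 11.9 and 44.3 ± 0.697 CPM, so only log2 0.59 ± 0.06 separated Treg from rested cells against 2.35 ± 0.06 from fresh cells. Tnfrsf1b, which encodes TNFR2, was at 436 ± 36.2 against 42.0 ± 1.25 CPM. The lower members were Tnfsf8, which encodes the CD30 ligand (37.3 ± 3.79 against 234 ± 10.50 CPM), the decoy receptor gene Tnfrsf26 (39.1 ± 1.53 against 205 ± 16.3 CPM), Cd40lg, which helper cells use to activate B cells (18.0 ± 0.890 against 62.7 ± 2.86 CPM), and Ltb, which encodes lymphotoxin beta. Ltb read 712, 765, 687 and 644 CPM in Treg and 818, 897, 1437 and 875 CPM in rested libraries, and its log2 fold change of -0.52 ± 0.15 became -0.27 without rested replicate 3, the highest library. With replicates 1, 2 and 4 of both groups alone Ltb was not called (-0.26, adjusted p = 0.083). Fresh cells held 51.6 ± 1.83 CPM of Tnfsf8 and 58.9 ± 0.932 CPM of Tnfrsf26, near the Treg level, whereas they held 85.9 ± 2.58 CPM of Cd40lg.

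Genes that TCR signals induce were higher in Treg than in rested CD5hi cells in 20 of 22 cases, with a median of 2.61; against fresh CD5hi cells 15 of 22 were called higher, with a median of 1.01. Egr3, an early factor downstream of calcium and ERK, read 22.0, 22.4, 22.4 and 22.0 CPM in Treg, 0.212, 0.281, 0.575 and 0.134 CPM in rested and 20.2, 22.5, 21.7 and 19.9 CPM in fresh libraries. Treg and fresh naive cells overlapped (adjusted p = 0.68), and both stood far above rested cells, by log2 6.17 ± 0.21 for Treg. Egr1, of the same family, repeated this, at 114, 109, 109 and 112 CPM in Treg, 9.92, 10.8, 16.1 and 12.7 CPM in rested and 107, 107, 116 and 103 CPM in fresh libraries. For Egr2, Treg cells also exceeded fresh cells, at 47.9 ± 1.38, 1.23 ± 0.656 and 19.95 ± 1.91 CPM in the same order. Nr4a1, which encodes the orphan receptor Nur77, a reporter of TCR signal strength, read 117, 130.2, 123 and 117 CPM in Treg, 9.97, 6.41, 9.15 and 6.53 CPM in rested and 62.9, 69.7, 80.0 and 65.6 CPM in fresh libraries. Cd69, whose protein was gated out in all groups and which is thus no finding, was at 71.9 ± 6.78, 9.05 ± 3.82 and 55.6 ± 3.88 CPM, with replicate 3 the highest rested library at 14.4 CPM.

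Members of the same list differed in their relation to fresh cells. Dusp6, a phosphatase gene that limits ERK, was at 22.7 ± 2.39 CPM in Treg against 3.65 ± 0.395 CPM in rested cells, and was below the fresh level of 34.8 ± 4.36 CPM (log2 -0.62 ± 0.10). Dusp4, of the same family, was instead low in both naive states, at 49.9 ± 1.37 CPM in Treg against 0.513 ± 0.171 and 1.39 ± 0.431 CPM in rested and fresh cells. Id3, an inhibitor of E proteins, was at 103 ± 8.48, 17.0 ± 2.77 and 56.5 ± 4.37 CPM. Spry1 was the reverse among naive states, at 19.2 ± 1.28, 4.47 ± 0.711 and 1.83 ± 0.182 CPM. The 1 member lower in Treg was Myc, a driver of growth that cytokines also induce, at 114, 118, 105 and 114 CPM in Treg and 189, 191, 179 and 183 CPM in rested libraries (log2 -0.72 ± 0.08), with fresh cells at 90.5 ± 8.75 CPM.

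Negative regulators of TCR signalling were higher in Treg in 17 of 25 cases and lower in 5, with a median of 0.33, and Ctla4, Lag3 and Tigit of the suppressor list were among them. Pdcd1, which encodes PD-1, read 64.8, 55.1, 61.1 and 61.8 CPM in Treg against 2.78, 3.68, 2.75 and 2.32 CPM in rested and 8.89, 9.02, 7.71 and 6.87 CPM in fresh libraries (log2 4.39 ± 0.20 against rested cells). Tnfaip3, which encodes A20, was at 119 ± 7.08 against 50.7 ± 11.2 CPM, and the phosphatase gene Ubash3b at 82.0 ± 7.02 against 38.9 ± 1.92 CPM. Dgka, a kinase that removes diacylglycerol, was lower in Treg, at 1069 ± 85.3 against 1952 ± 177 CPM (log2 -0.87 ± 0.07), with fresh cells at 1913 ± 69.2 CPM. Cd6, the relative of Cd5, was at 588 ± 3.52 CPM in Treg, 506 ± 35.1 CPM in rested and 996 ± 52.6 CPM in fresh cells. On the library total the lower members numbered 2. Against fresh CD5hi cells 11 of the 25 were higher in Treg and 8 lower, with a median of 0.05, beside 27.5% and 26.6% of all genes. Between the naive states 14 were lower in rested than in fresh cells and 4 higher.

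The signalling core of the TCR was split against rested cells: of 23 components 6 were higher in Treg, 9 lower and 8 not called, with a median of -0.04. The 15 calls among 23 genes are near the 66.2% of all genes. The 9 lower members became 7 with DESeq2, in a fit of the 8 libraries alone and with a replicate block. On leaving out 1 library they numbered 7 to 9. Themis, which tunes signals from weak ligands, was at 38.1 ± 2.39 against 159 ± 8.40 CPM, 4.17-fold lower in Treg, and its fresh level of 152 ± 4.69 CPM matched the rested one within the spread (adjusted p = 0.35). Trat1 and Grap2, adaptors, were lower by log2 -1.63 ± 0.14 and -0.87 ± 0.06. The higher members moved by at most 0.50 on the log2 scale, among them Lck (830.0 ± 27.2 against 731 ± 36.0 CPM) and Zap70 (244 ± 3.80 against 202 ± 10.4 CPM), and for changes of that size the scaling counts: on the library total alone 9 were higher and 7 lower. Against fresh CD5hi cells 2 of the 23 were higher in Treg and 18 lower, with a median of -0.33, beside 27.5% and 26.6% of all genes. Between the naive states 15 were lower in rested than in fresh cells and 4 higher.

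Interferon-stimulated genes were higher in Treg in 33 of 37 cases and lower in 1, with a median of 1.85; against fresh CD5hi cells 20 were higher and 5 lower, with a median of 0.21. Ifit3, an antiviral effector, read 30.7, 29.6, 35.3 and 35.4 CPM in Treg, 3.84, 2.55, 3.41 and 4.85 CPM in rested and 36.6, 35.5, 27.0 and 28.7 CPM in fresh libraries. Treg and fresh cells overlapped and rested cells lay below both (log2 3.17 ± 0.17 for Treg against rested, 0.04 ± 0.14 against fresh). Rsad2, Isg15 and Oas3 showed the same order, at 13.1 ± 2.54, 28.5 ± 2.16 and 54.5 ± 6.99 CPM in Treg, 0.980 ± 0.213, 4.57 ± 0.433 and 9.23 ± 0.974 CPM in rested cells and 12.6 ± 1.76, 25.4 ± 2.44 and 55.8 ± 5.76 CPM in fresh cells. Irf7 and Oasl2 were higher in fresh than in Treg cells, at 138 ± 9.79 against 103 ± 7.08 CPM and 26.8 ± 2.72 against 16.7 ± 2.55 CPM, and lowest in rested cells at 28.4 ± 1.65 and 3.72 ± 0.450 CPM. Mx1, a dynamin-like antiviral GTPase, was above both naive states, at 17.9, 15.98, 27.0 and 30.8 CPM in Treg, 0.610, 0.141, 0.383 and 0.179 CPM in rested and 10.0, 10.2, 8.41 and 8.07 CPM in fresh libraries. The member lower in Treg was Ifit2, at 71.7 ± 3.04 against 123 ± 23.9 CPM (log2 -0.78 ± 0.11).

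**Figure D4:**
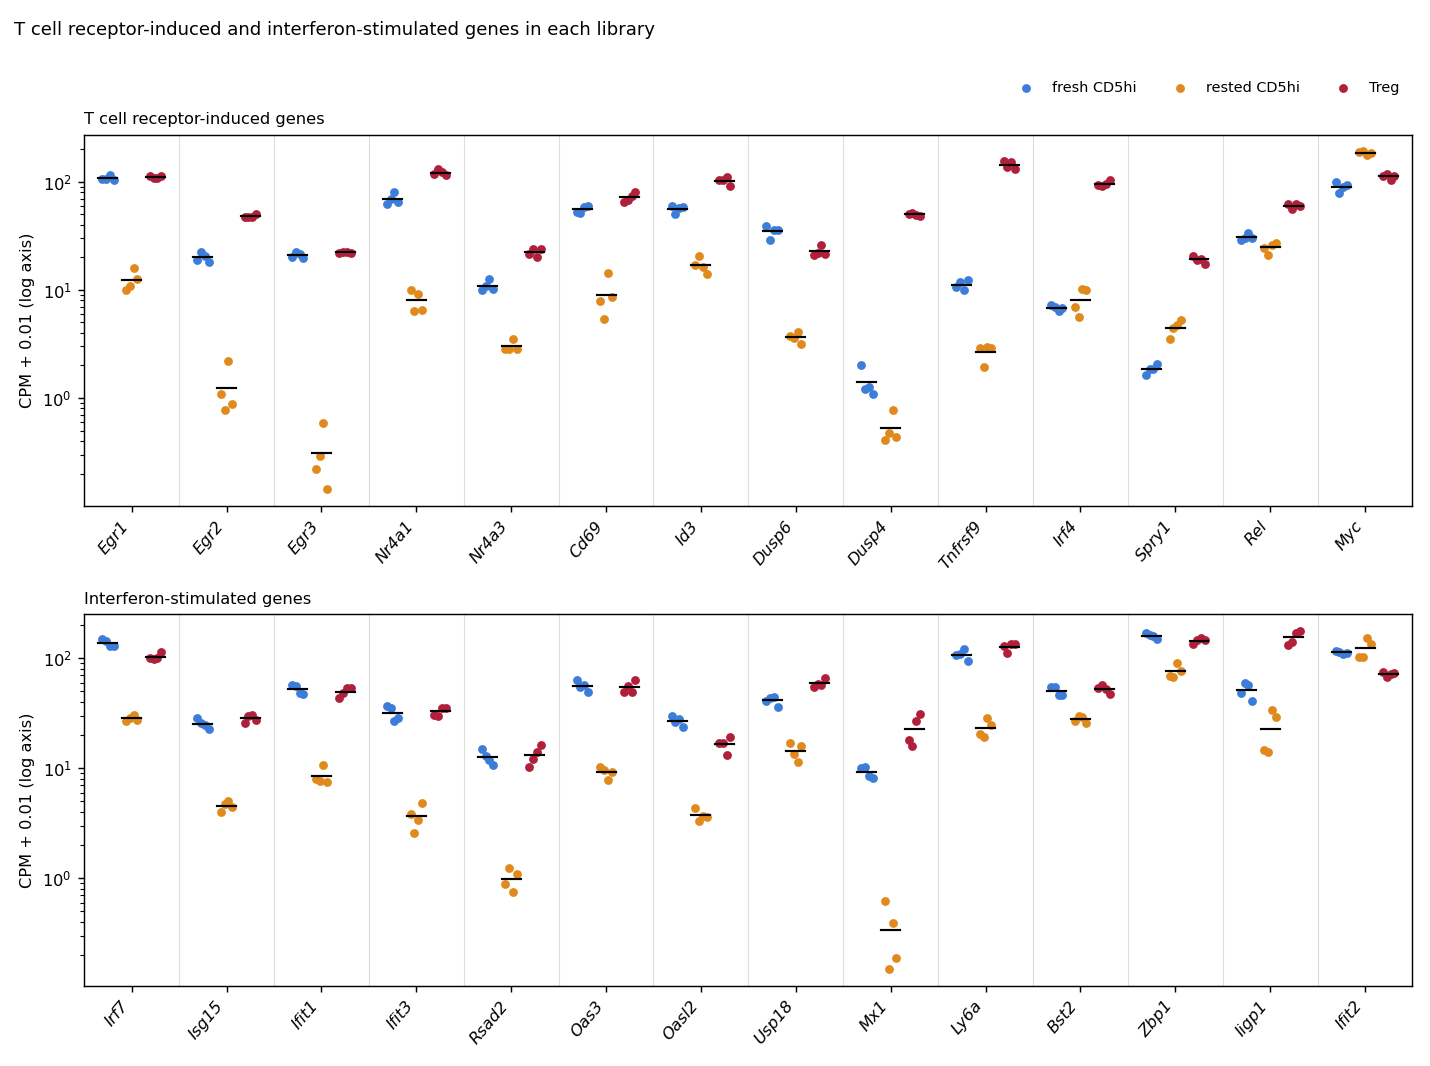
CPM plus 0.01 on a log axis for 14 TCR-induced genes (top) and 14 interferon-stimulated genes (bottom) in each library, 4 dots per group with a black bar at the group mean, blue for fresh CD5hi, orange for rested CD5hi and red for Treg. For Egr1, Egr3, Isg15, Ifit1, Ifit3, Rsad2 and Oas3 the blue and red dots share 1 level and the orange dots lie below; Myc and Ifit2 are the exceptions, higher in rested than in Treg cells.

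Of 16 members of the chemokine receptor list, 14 were higher in Treg than in rested naive cells, 1 lower and 1 not called. The median was 5.16 (5.14 with Ccr1, which had no counts in rested cells, at its bound of 38.2-fold). Ccr7, a chemokine receptor gene that was lower in Treg, was counted on the naive list and not here. Ccr6, a receptor of barrier tissues, read 47.4, 40.9, 42.4 and 50.3 CPM in Treg against 0.133, 0.0804, 0.128 and 0.179 CPM in rested libraries (log2 8.43 ± 0.31). Ccr4 and Ccr8, receptors for skin and inflamed tissue, were at 90.1 ± 6.20 and 23.1 ± 2.94 CPM in Treg against 1.02 ± 0.319 and 0.389 ± 0.124 CPM. Cxcr3, the receptor of type 1 inflammation, read 54.0, 43.2, 66.4 and 57.7 CPM against 0.451, 1.63, 2.51 and 2.79 CPM, and Cxcr5, the follicular receptor, 72.4, 66.1, 67.7 and 64.7 CPM against 1.30, 2.23, 1.75 and 1.56 CPM. Ccr2, a receptor for monocyte chemoattractants, was at 62.7 ± 5.39 against 1.27 ± 0.275 CPM. The fresh naive level was low too, at 0.103 ± 0.0973, 2.38 ± 0.283, 2.09 ± 0.983 and 3.47 ± 0.432 CPM for Ccr6, Ccr4, Cxcr3 and Cxcr5. The lower member was S1pr4, a sphingosine phosphate receptor and not a chemokine receptor (194 ± 8.74 against 415 ± 45.00 CPM). Cxcr4 was not called, at 41.8 to 112 CPM in Treg and 40.6 to 59.7 CPM in rested libraries.

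Adhesion, annexin and S100 genes of effector cells were higher in Treg in 21 of 25 cases and lower in 3, with a median of 1.57. Itgae, which encodes CD103, an integrin of epithelial retention, read 215, 201, 208 and 244 CPM in Treg and 0.954, 1.03, 0.660 and 1.61 CPM in rested libraries, 204-fold apart (log2 7.67 ± 0.23), with fresh cells at 0.946 ± 0.362 CPM. Il1rl1, which encodes the IL-33 receptor ST2 of tissue Treg cells, read 50.6, 44.5, 43.3 and 60.8 CPM against 0.292, 0.121, 0.0852 and 0.223 CPM. S100a4 and S100a6, calcium-binding proteins of migrating cells, were at 82.2 ± 6.28 and 74.9 ± 3.71 CPM against 0.298 ± 0.119 and 1.30 ± 0.450 CPM. Icos, a costimulatory receptor, was at 281 ± 30.3 CPM in Treg, 98.5 ± 14.7 CPM in rested and 64.5 ± 5.11 CPM in fresh cells. Itgb1 read 376, 319.9, 327 and 339 CPM in Treg and 66.6, 77.2, 122 and 96.3 CPM in rested libraries, and replicate 3 was the highest of the rested ones. The lower members were Id2 (19.6 ± 2.65 against 123 ± 19.3 CPM), Itga4 and S100a13. Naive cells were gated low in CD44, a marker of this programme, and Treg cells were not; the part of the gate was not tested.

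Genes of naive identity and homing were lower in Treg in 20 of 25 cases and higher in 5, with a median of -1.28. Lef1 and Tcf7, factors of the naive programme, read 124, 132, 108 and 127 and 544, 574, 431 and 513 CPM in Treg libraries against 480.1, 482, 461 and 457 and 1341, 1279, 1403 and 1289 CPM in rested libraries (log2 -1.94 ± 0.06 and -1.37 ± 0.08). Satb1, a chromatin organiser, was at 282 ± 31.8 against 689 ± 31.2 CPM. Tcf7 and Satb1 were higher still in fresh cells, at 1999.9 ± 157 and 1088 ± 47.2 CPM, whereas Lef1 in rested and fresh cells did not differ beyond the spread (433 ± 7.14 CPM in fresh, adjusted p = 0.083). Homing receptors followed: Ccr7 was at 204 ± 10.6 against 511 ± 30.4 CPM and S1pr1, needed to leave lymph nodes, at 434 ± 28.5 against 1086 ± 45.1 CPM. Klf2, which drives these receptors, was at 250.2 ± 28.4 against 645 ± 38.2 CPM, with fresh cells at 331 ± 18.9 CPM, nearer to Treg than rested cells were. Foxo1, an upstream regulator of Klf2, was among the 5 higher members, at 398 ± 31.8 CPM in Treg, 211 ± 9.74 CPM in rested and 462 ± 36.1 CPM in fresh cells. Igfbp4 was lower in Treg than in rested cells, at 97.8, 92.8, 85.2 and 97.2 against 306, 306, 199 and 169.7 CPM, and fresh cells held 1128 ± 93.7 CPM.

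The 12 widest falls in Treg held genes high in both naive states and genes high after resting only. Pde3b, a phosphodiesterase that breaks down cyclic AMP and that Foxp3 is known to repress, read 5.77, 5.65, 4.46 and 4.48 CPM in Treg, 369, 366, 328 and 307 CPM in rested and 131, 158, 178 and 132 CPM in fresh libraries (67.2-fold lower in Treg than in rested cells, log2 -6.07 ± 0.13). Vipr1, the receptor of vasoactive intestinal peptide, read 9.82, 10.2, 10.3 and 12.6 CPM in Treg against 433, 442, 439 and 427 CPM in rested and 291, 318, 334 and 305 CPM in fresh libraries. Treg cells were low against either naive state in both. Pdlim4 and Qrfp gave the largest fitted falls, at 0.212 ± 0.181 and 0.272 ± 0.0615 CPM in Treg against 50.8 ± 14.8 and 21.3 ± 3.83 CPM in rested cells (log2 -7.91 ± 0.31 and -6.26 ± 0.21), with fresh cells at 24.5 ± 1.84 and 5.55 ± 0.674 CPM. Without Treg replicate 4 the value of Pdlim4 was -8.54. Atp8b4, a phospholipid flippase gene, was at 0.780 ± 0.278 against 49.0 ± 4.09 CPM, Dapl1 at 2.57 ± 0.489 against 69.2 ± 12.1 CPM, Cnga1 at 0.971 ± 0.0681 against 25.8 ± 5.01 CPM and Il1rl2, the IL-36 receptor gene, at 0.799 ± 0.241 against 17.8 ± 3.902 CPM, with fresh cells at 59.4 ± 3.10, 90.5 ± 9.05, 20.4 ± 1.12 and 18.0 ± 0.771 CPM. Ggt5, a gamma-glutamyltransferase gene, was at 0.422 ± 0.183 CPM in Treg, 18.1 ± 1.76 CPM in rested and 74.8 ± 5.51 CPM in fresh cells.

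The other 3 of these genes were low in fresh naive cells as well. Myo6, which encodes an unconventional myosin, read 10.8, 12.6, 11.4 and 10.51 CPM in Treg, 368, 385, 414 and 409 CPM in rested and 17.5, 16.6, 20.4 and 18.1 CPM in fresh libraries. Slc30a4, a zinc transporter gene, read 9.79, 10.6, 10.6 and 11.6, 301, 339.8, 368 and 354 and 24.9, 24.7, 25.7 and 23.2 CPM in the same order, and Gbp11, a guanylate-binding protein gene, 1.94, 2.41, 2.56 and 3.20, 100.5, 99.4, 100.2 and 124 and 7.23, 7.84, 9.70 and 7.16 CPM. In each, rested cells stood alone and Treg cells were below fresh cells by a smaller step, log2 -0.68 ± 0.08, -1.21 ± 0.09 and -1.67 ± 0.13 against -5.12 ± 0.09, -5.00 ± 0.10 and -5.40 ± 0.14 for Treg against rested cells.

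Of the genes that differed between Treg and fresh CD5hi cells, those with the largest change towards the Treg level on resting were Socs2, Fsd1l, Il2ra, Acvr1c, Mtap6, Gpr34, Slc16a5 and Ecm1. These 8 were ranked on the rested and fresh libraries, so their changes are a description. Socs2 and Il2ra stopped short of Treg. Fsd1l nearly met it, at 8.03 ± 0.567 CPM in Treg, 10.3 ± 1.36 CPM in rested and 0.159 ± 0.0539 CPM in fresh cells (log2 -0.36 ± 0.15 for Treg against rested cells, adjusted p = 0.041). That call was lost on leaving out any 1 library other than rested replicate 3, with adjusted p from 0.054 to 0.14, and under 4 alternatives of scaling or filter (0.055 to 0.22). The others with higher rested than fresh levels passed beyond Treg. Ecm1, a secreted matrix protein gene, read 194, 208, 177 and 186 CPM in Treg, 1688, 1689, 1532 and 1802 CPM in rested and 62.2, 55.2, 64.7 and 62.6 CPM in fresh libraries, 8.77-fold higher in rested than in Treg cells. Gpr34, a lysophospholipid receptor gene, was at 31.1 ± 0.940, 101 ± 12.1 and 2.64 ± 0.293 CPM, Acvr1c, an activin receptor gene, at 6.29 ± 0.922, 34.9 ± 4.56 and 0.839 ± 0.0955 CPM, and Mtap6, a microtubule protein gene, at 30.7 ± 3.56, 71.6 ± 10.4 and 1.72 ± 0.159 CPM. Slc16a5, a transporter gene, was high in fresh cells (41.0 ± 2.08 CPM) and low in Treg and rested cells (4.86 ± 0.686 and 1.34 ± 0.423 CPM). Gprin3, on the naive list, was at 36.9 ± 5.19, 12.3 ± 2.71 and 2.13 ± 0.267 CPM in Treg, rested and fresh cells, lowest in the fresh naive cells.

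The 8 genes with the largest change away from the Treg level were Apol9b, Stra6, Rap1gap2, Mx1, Penk, Myo6, Axl and Egr2. Apol9b, an apolipoprotein L gene, read 30.1, 29.6, 28.3 and 29.6 CPM in Treg, 0, 0, 0.0426 and 0.0447 CPM in rested and 7.34, 6.94, 8.00 and 9.99 CPM in fresh libraries. The rested libraries were at or near 0, and Treg cells were above the fresh ones by log2 1.86 ± 0.14. Axl, a receptor kinase that dampens interferon responses, was at 59.4 ± 5.64, 0.284 ± 0.184 and 4.69 ± 0.903 CPM, and Rap1gap2, a GTPase-activating protein gene, at 13.4 ± 1.37, 0.0963 ± 0.0402 and 3.79 ± 0.388 CPM. For 7 of the 8 genes Treg cells were the high group and rested cells the low one; Myo6 was the exception.

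**Figure D5:**
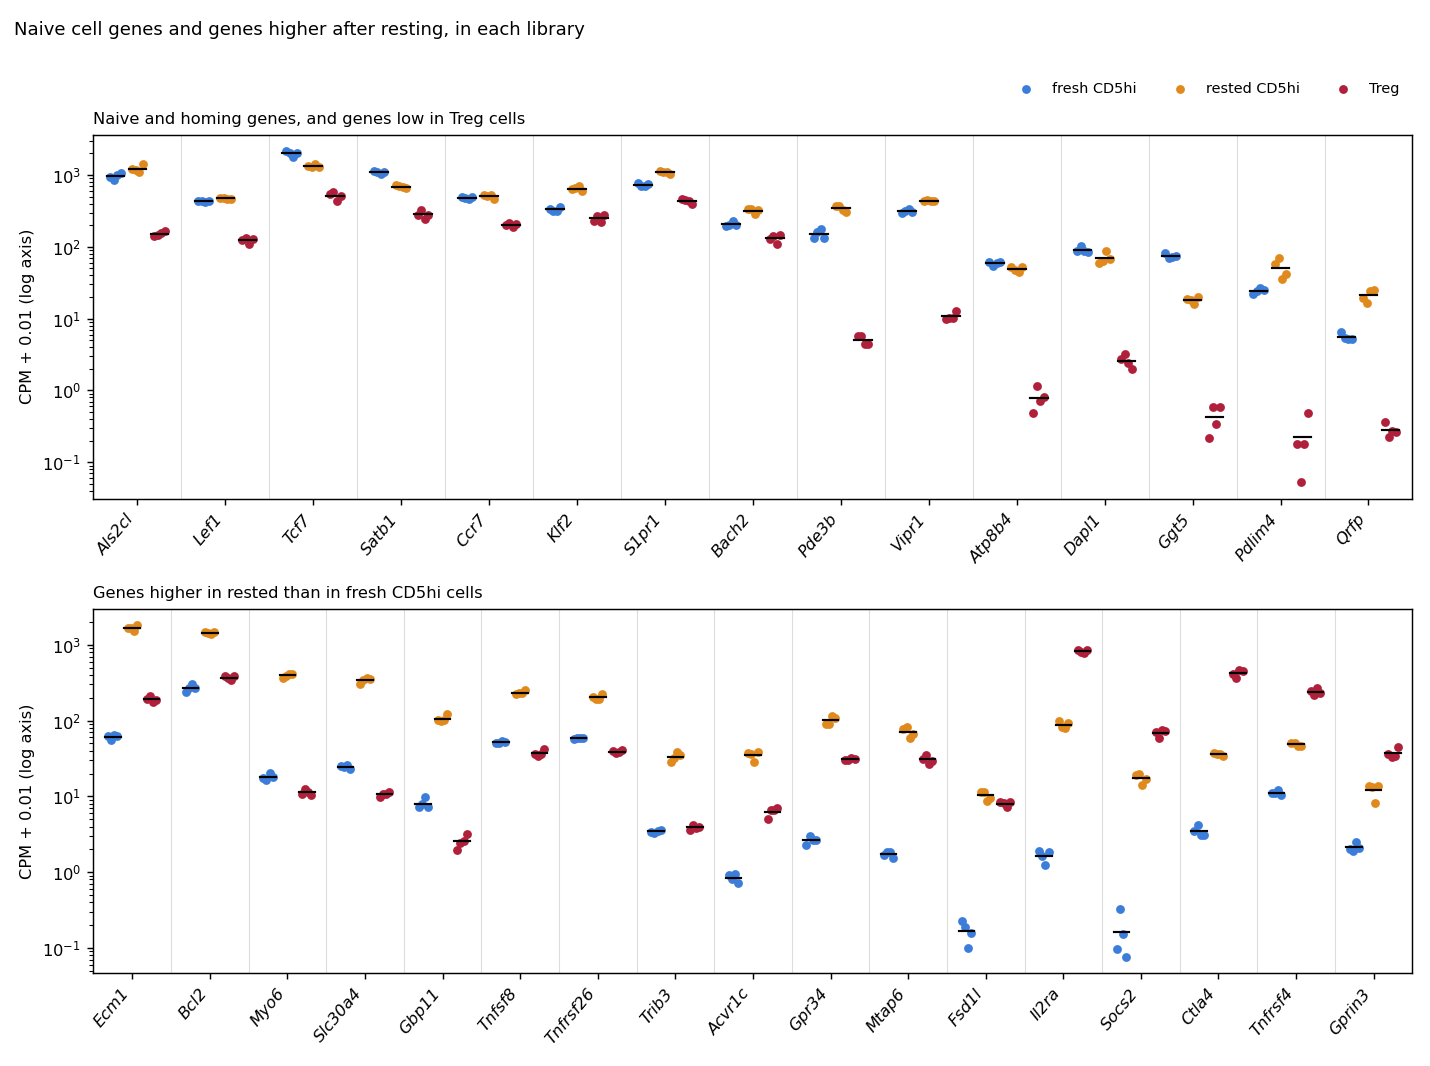
CPM plus 0.01 on a log axis for 15 genes lower in Treg (top) and 17 genes higher in rested than in fresh CD5hi cells (bottom) in each library, 4 dots per group with a black bar at the group mean, blue for fresh CD5hi, orange for rested CD5hi and red for Treg. In the lower panel the red dots lie below the orange ones from Ecm1 to Fsd1l and above them from Il2ra to Gprin3.

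Genes of cell survival and death beyond Bcl2 showed both directions. Of 18 tested members of the p53 and BCL2 family list, 4 were higher and 6 lower in Treg (8 higher on the library total). The 55.6% called were below the 66.2% of all genes. Against fresh CD5hi cells 12 of the 18 were higher in Treg and 1 lower, with a median of 0.55, beside 27.5% and 26.6% of all genes. Between the naive states 14 were higher in rested than in fresh cells and 0 lower. Mcl1, a survival gene, was at 759.6 ± 55.3 CPM in Treg, 1236 ± 139.8 CPM in rested and 574 ± 40.5 CPM in fresh cells. Bcl2l11, which encodes the death activator Bim, was likewise at 73.9 ± 4.18, 201 ± 18.8 and 83.1 ± 3.55 CPM, so genes for and against survival were both highest in rested cells. Bcl2l1, which encodes Bcl-xL, went the other way: it read 67.0, 66.3, 67.1 and 68.7 CPM in Treg against 15.99, 12.7, 17.6 and 13.8 CPM in rested and 15.3, 13.4, 12.0 and 13.3 CPM in fresh libraries (log2 2.17 ± 0.09). Pmaip1, which encodes the death activator Noxa, was also highest in Treg, at 12.9 ± 1.30 against 1.35 ± 0.265 CPM.

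Of 25 tested sterol and fatty acid genes, 19 were lower in Treg and 5 higher, with a median of -0.67. Among the lower members, Idi1, of isoprenoid synthesis, was at 28.8 ± 3.56 CPM in Treg against 67.0 ± 6.79 CPM and Sqle, a committed step of sterol synthesis, at 19.7 ± 2.80 against 36.9 ± 2.34 CPM. Their fresh levels, at means of 30.0 and 19.95 CPM, were near those of Treg cells. Among the higher members, Abca1, a cholesterol exporter, read 58.0, 55.6, 42.4 and 66.2 CPM in Treg, 4.27, 4.42, 4.88 and 5.03 CPM in rested and 63.9, 83.8, 96.6 and 72.0 CPM in fresh libraries (log2 3.58 ± 0.16 against rested cells), Abcg1 was at 144 ± 16.1 against 74.7 ± 8.53 CPM and Scd2 at 173 ± 18.7 against 22.8 ± 2.77 CPM. Against fresh CD5hi cells 9 of the 25 were lower in Treg and 5 higher, with a median of -0.06.

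Glycolysis and hypoxia genes were mixed, with 11 of 22 higher and 7 lower (4 lower on the library total), beside 33.5% and 32.8% of all genes. Slc2a3, a glucose transporter gene, was at 162 ± 4.59 against 64.5 ± 4.79 CPM, Slc16a3, a lactate exporter gene, at 14.1 ± 0.836 against 1.63 ± 0.413 CPM and Hk2, the inducible hexokinase gene, at 6.04 ± 0.452 against 1.07 ± 0.244 CPM, all higher in Treg. Pdk1, which keeps pyruvate from mitochondria, was lower, at 166 ± 8.92 against 289 ± 20.1 CPM, and Ldha was level (433 ± 17.9 against 463 ± 61.2 CPM, adjusted p = 0.35). Of 25 genes of oxidative phosphorylation, 1 was higher and 4 lower in Treg, with a median of -0.07. On the library total 5 were higher and none lower, with a median of 0.07, so these data give the list no direction.

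Ribosome biogenesis genes were lower in Treg in 21 of 24 cases and higher in none, by small steps (median -0.31; 14 lower and none higher on the library total). Dkc1, which encodes dyskerin, was at 63.3 ± 3.22 against 122 ± 6.43 CPM (log2 -0.94 ± 0.06) and Npm1, which encodes nucleophosmin, at 543 ± 45.6 against 881 ± 92.5 CPM; their fresh levels of 81.4 ± 3.23 and 616 ± 15.4 CPM lay between. Of 17 tested members of the ATF4 and amino acid list, 8 were higher and 6 lower, beside 33.5% and 32.8% of all genes. Trib3, a target of ATF4, was high in rested cells alone, at 3.61, 4.17, 3.81 and 3.94 CPM in Treg, 28.8, 32.0, 38.2 and 34.8 CPM in rested and 3.34, 3.25, 3.53 and 3.61 CPM in fresh libraries (log2 -3.11 ± 0.10). Ddit4, an inhibitor of mTORC1, was low in rested cells alone, at 192 ± 36.3, 27.6 ± 4.21 and 238 ± 57.4 CPM.

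Cell cycle genes were higher in Treg in 22 of 28 cases and lower in 2, with a median of 0.88. Mki67, the proliferation marker gene, read 58.7, 50.8, 65.2 and 72.7 CPM in Treg against 7.58, 8.71, 6.54 and 9.41 CPM in rested and 10.1, 10.3, 10.4 and 7.12 CPM in fresh libraries (log2 2.94 ± 0.17). Top2a and Rrm2 were at 28.1 ± 4.43 and 12.7 ± 1.33 CPM against 9.28 ± 0.670 and 4.18 ± 0.675 CPM. Mitotic members were low in CPM in both groups, such as Bub1 at 1.34 ± 0.0955 against 0.236 ± 0.0753 CPM. The lower members were Pcna and Mcm2, a clamp and a helicase subunit of replication, at 123 ± 7.41 against 180.4 ± 29.0 CPM and 65.0 ± 4.29 against 75.1 ± 6.99 CPM. The Mcm2 call was lost on the library total (adjusted p = 0.40) and without Treg replicate 3 or 4 or rested replicate 3 (0.070 to 0.15).

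Immediate early and stress genes showed no shared direction: of 22 tested members 10 were higher in Treg, 5 lower and 7 not called. The 68.2% called were near the 66.2% of all genes. Junb was at 211 ± 22.7 against 96.9 ± 21.2 CPM and Dusp1 at 39.8 ± 4.48 against 19.1 ± 2.43 CPM, while Fos read 11.1, 21.4, 9.30 and 5.84 CPM in Treg against 32.8, 29.5, 24.5 and 27.3 CPM in rested libraries and Klf6 was at 142 ± 7.68 against 283 ± 20.7 CPM. Hspa1b, an inducible heat shock gene, rested on 1 library: Treg libraries read 1.87, 34.7, 3.12 and 0.896 CPM against 0.292, 0.201, 0.958 and 0.514 CPM in rested libraries, and without Treg replicate 2 its log2 fold change of 4.34 became 2.004 (adjusted p = 0.23 by the same test), against 4.93 without rested replicate 3. Of the 11 helper cytokine genes only Ifng and Il21 had enough counts to test. Ifng read 0.868, 1.78, 1.46 and 1.11 CPM in Treg and gave 3 counts over the 4 rested libraries, a ratio of 76.7 (95% exact interval 26.0 to 374), and 2 of the 3 counts were in rested replicate 3.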

How the data were processed

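Counts of reads per gene were deposited by the authors for 20 libraries (polyA RNA, TruSeq mRNA v2, 50-cycle paired reads). Per the submitters' processing notes, TopHat2 2.0.11, featureCounts 1.4.5 and edgeR were used with mm9; annotation and strandedness were not given in the sources used here. The counts were fitted in edgeR 4.0.16 (R 4.3.3) with TMM scaling, filterByExpr, 1 factor of 5 groups and quasi-likelihood tests with Benjamini-Hochberg adjustment over 13309 of 22068 genes; calls are at an adjusted p of 0.05. CPM uses TMM-scaled totals, and intervals treat each count as independent and leave out the spread between samples. Of counts from 1 to 10, 62.3% to 66.2% per library were even numbers. If both reads of a pair were counted, intervals are too narrow and the at-least folds too high, which was not tested. Named genes were the 12 widest rises and falls at 10 CPM or more, up to 6 members per list at 1 CPM or more, the 8 widest resting changes towards and away from Treg, and the sort markers. Further list members were named after their values were seen. Members and lists were chosen with earlier results of these data known. On simulated data (13075 genes), 73.1% of 1.5-fold, 83.6% of 2-fold and 95.5% of 4-fold changes were recovered, with 4% of calls false. Only 200 genes were changed there, in random directions. The real comparison had far more calls and one-sided large changes, so these rates check the fit and are not its error rates. Alternatives were other scalings, filters, DESeq2 1.42.0, the 8 libraries alone, a replicate block and leaving out libraries. The deposited normalized table was not used. Some members of the gene lists are not reported here by name.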

Additional observations from a re-analysis of the deposited data

Results flagged for a closer look

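Among 525 sets of 4 libraries (named gene by group), 39 held a library whose gap to the nearest other exceeded Dixon's 95% critical value as a share of the range. Chance gives about 1 in 20 sets for normally distributed values. In the flagged sets of Areg, Il10 and Klrg1 (fresh), Arnt2, Peli2, Penk and Tnfrsf8 (rested) and Il12a (Treg), every other library was at 0. Any count in 1 library then passes the limit, so the chance rate does not hold for these sets. Rested CD5hi replicate 1 was the highest of its group, at 0.0530 CPM for Peli2 and 0.0530 CPM for Tnfrsf8. Rested CD5hi replicate 2 was the highest of its group, at 0.0402 CPM for Arnt2 and 0.0201 CPM for Penk. Rested CD5hi replicate 2 was the lowest of its group, at 14.5 CPM for Prdm1 and 1.91 CPM for Tnfrsf9. Rested CD5hi replicate 3 was the highest of its group, at 558 CPM for Cd6, 10.7 CPM for Ifit1, 1112 CPM for Il4ra, 1437 CPM for Ltb, 85.5 CPM for Mcm2, 224 CPM for Pcna and 69.2 CPM for S100a13. Rested CD5hi replicate 3 was the lowest of its group, at 34.3 CPM for Gata3 and 8.24 CPM for Gprin3. Rested CD5hi replicate 4 was the highest of its group, at 1.497 CPM for Ccr4 and 124 CPM for Gbp11. Treg replicate 2 was the highest of its group, at 34.7 CPM for Hspa1b. Treg replicate 3 was the highest of its group, at 593 CPM for Cd6, 32.5 CPM for Gpr34 and 0.0374 CPM for Il12a. Treg replicate 3 was the lowest of its group, at 351 CPM for Foxo1 and 0.598 CPM for Xist. Treg replicate 4 was the highest of its group, at 350.1 CPM for Jak3, 29.7 CPM for Pim2, 179 CPM for Socs3 and 12.6 CPM for Vipr1. Treg replicate 4 was the lowest of its group, at 475 CPM for Npm1. Fresh CD5hi replicate 2 was the highest of its group, at 2.79 CPM for Ccr4, 0.248 CPM for Ccr6 and 104 CPM for Dapl1. Fresh CD5hi replicate 3 was the highest of its group, at 0.106 CPM for Areg, 38.9 CPM for Hspa1b, 34.7 CPM for Idi1 and 32.4 CPM for Socs1. Fresh CD5hi replicate 3 was the lowest of its group, at 284 CPM for Pdk1. Fresh CD5hi replicate 4 was the highest of its group, at 0.0333 CPM for Il10 and 0.0333 CPM for Klrg1. Fresh CD5hi replicate 4 was the lowest of its group, at 7.12 CPM for Mki67. The value of Xist follows the sex-linked split of the libraries.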

How the results depend on the processing

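The count of 8817 genes called between Treg and rested CD5hi cells ran from 7942 (at least 1 CPM in 4 libraries) to 8937 (no filter) over the alternatives, with 8844 by DESeq2, 8100 in a fit of the 8 libraries alone, 8291 for replicates 1, 2 and 4 and 8349 to 8643 on leaving out 1 library. With scaling on the library total alone, 5678 of 8626 calls were higher in Treg and 2948 lower. Same-numbered Treg and rested libraries deviated together with correlations of 0.11, 0.05, 0.36 and 0.17, against at most 0.07, 0.01, -0.13 and 0.11 for other numbers. Replicate 3 was also the Y-linked library of both groups. The labels state no pairs, and the main fit took none, so its p-values ignore any pairing. A replicate block over the 8 libraries gave 8029 calls and ended those of Stat5b (adjusted p = 0.058) and Socs1 (0.051), and each Treg library correlated best with the rested library of its own number, a hint from the data and not from the design. None of the genes named changed sign among calls. The cause of calls lost for single genes was not tested. At 38211406 or more counts per library, genes without counts in rested cells have lower bounds only, and those with 1 to 3 counts have wide intervals. Sex differs between fresh and rested libraries, and its part in those comparisons cannot be told apart from culture for replicates 1, 2 and 4.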
